A study of Mus musculus with 12 samples.

Results

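Adar, Adarb1 and Adarb2 are the 3 mouse genes of the adenosine-to-inosine RNA editing family, and they were taken here by gene symbol from the 22609 genes listed in each count table. They had been proposed as a set with their levels in trigeminal ganglia (TG) and dorsal root ganglia (DRG) in view, so their TG and DRG levels are given as a description without a test. RNA was sequenced from the sensory neuronal fraction of both ganglia, obtained by enzymatic dissociation and a Percoll density gradient. There were 12 libraries, in 4 groups of 3: TG from females, TG from males, DRG from females and DRG from males. All animals were untreated C57BL mice (C57BL/6J in the methods of the study) that the labels place at 3 to 4 months of age, although the methods of the study give a younger range, and the females were in the estrous phase. DRG were the lumbar L3 to L5 ganglia. No transgene, deletion or injury was present in any group. The labels number the libraries 1 to 3 in each group and do not say whether a TG and a DRG library with the same number came from the same animals, so that p-values measure only the spread between these libraries.

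Enzymes of this family bind double-stranded RNA and deaminate adenosine to inosine, which the ribosome and the splicing machinery read as guanosine. Adar encodes ADAR1, which edits long duplexes and keeps endogenous duplex RNA from being sensed as viral, and part of its protein is made from an interferon-inducible promoter. Adarb1 encodes ADAR2, the enzyme known for recoding transcripts of ion channels and receptors, above all the pore glutamine codon of the AMPA receptor subunit gene Gria2. Adarb2 encodes ADAR3, a largely brain-restricted member for which no deaminase activity has been shown. Read counts per gene carry no base-level information, so editing itself was not measured.

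Stretches of coding exon around the catalytic site are printed for the 3 genes. They hold the histidine, alanine and glutamate codons of the catalytic site, printed in capitals and read 5′ to 3′ on the coding strand of the mm9 (NCBIM37) genome. The Adar stretch lies at chr3:89550522-89550578 on the plus strand, the Adarb1 stretch at chr10:76776185-76776241 on the minus strand and the Adarb2 stretch at chr13:8696943-8696999 on the plus strand.
Adar: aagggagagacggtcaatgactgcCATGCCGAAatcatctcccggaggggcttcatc
Adarb1: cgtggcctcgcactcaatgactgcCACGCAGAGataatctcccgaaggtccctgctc
Adarb2: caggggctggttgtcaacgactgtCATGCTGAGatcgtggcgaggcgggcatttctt
Each stretch was found by searching the translated sequence for these 3 residues, so their presence in all 3 genes follows from the search. Their codons are also part of the bases compared. Over the 57 bases, Adar and Adarb1 were identical at 64.9% of positions, Adar and Adarb2 at 61.4% and Adarb1 and Adarb2 at 57.9%.

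A further stretch is shown because the Adarb1 protein edits its own transcript there. At chr10:76785317-76785395, minus strand, an upstream and a downstream splice acceptor of a coding exon lie 47 bases apart, and the capitals mark the last bases of the intron before each.
Adarb1 acceptors: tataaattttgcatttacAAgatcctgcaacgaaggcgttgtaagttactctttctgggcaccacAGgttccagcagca
The upstream acceptor ends in AA, which editing turns into a dinucleotide that is read as AG, and the downstream acceptor ends in a genomic AG. In the GENCODE M1 annotation 3 transcripts used the upstream acceptor and 5 the downstream one. Counts were summed per gene, so the level of Adarb1 below joins both forms.

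Library depth ranged from 7511765 to 15396090 reads in genes, with a median of 11663521.5, and a count of 3 corresponded to between 0.195 and 0.399 CPM (read counts scaled to a fixed library size) depending on the library. All 13 sensory neuron markers were detected, and their summed level was 7634 to 10897 CPM in TG and 7598 to 14288 CPM in DRG. Markers of other cells were present as well, with satellite glia at 4000 to 6662 CPM in TG and 2558 to 5742 CPM in DRG, Schwann cells at 2095 to 3004 and 2009 to 3002 CPM, macrophages at 160 to 488 and 147 to 362 CPM, fibroblasts at 618 to 1677 and 1028 to 2192 CPM, endothelial cells at 286 to 604 and 181 to 591 CPM, and mural cells at 205 to 360 and 206 to 526 CPM. The hemoglobin genes were listed at 0 in all 12 libraries. These ranges overlapped between the ganglia. The summed level of the 3 cold-sensing neuron markers did not, at 271 to 505 CPM in TG and 67.4 to 106 CPM in DRG. For 1 of these 3 markers, every TG library lay above every DRG library. The same held for 0.998% of the 14829 genes kept by the filter on low counts. The log2 fold changes of the 3 markers, TG over DRG, had a median of 0.39 and a maximum of 2.65. The sums for peptidergic, non-peptidergic, C-fibre low-threshold and large-diameter neurons overlapped when the sexes were pooled. Within each sex the C-fibre low-threshold sums did not overlap. They were 40.8 to 128 CPM in female TG, 129 to 258 in female DRG, 85.1 to 166 in male TG and 226 to 289 in male DRG. The non-peptidergic sums overlapped in females but not in males, at 597 to 771 CPM in TG and 879 to 1086 CPM in DRG. The non-peptidergic and C-fibre low-threshold lists each held 1 marker with every TG library below every DRG library. That was so for 0.364% of the same 14829 genes. Female TG 3 had the lowest correlation with its group mates among the TG libraries (mean r = 0.882), and values that rest on it are given with and without it. The female DRG libraries 1 to 3 were lower still, at 0.841, 0.870 and 0.864, and female DRG 1 also had the fewest reads in genes.

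Adarb1 was the one member with all 6 TG libraries above all 6 DRG libraries. Adar differed little between them, and Adarb2 was close to the detection limit in both. All levels are CPM scaled by the trimmed mean of M-values (TMM) unless stated otherwise.

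Adarb1 (ENSMUSG00000020262.9, chr10:76753471-76881015, minus strand) had 213, 184 and 62.6 CPM in female TG libraries 1 to 3 and 152, 219 and 176 CPM in male TG libraries 1 to 3. In DRG it had 32.1, 53.5 and 36.3 CPM in the females and 40.9, 27.4 and 26.0 CPM in the males. The ganglia did not overlap, but female TG 3 stood well below the other TG libraries and only 1.17-fold above the highest DRG library, female DRG 2. Over the 14829 genes kept by the filter on low counts, 0.998% had all 6 TG libraries above all 6 DRG libraries, and this measure belongs to the contrast by which the genes were proposed.

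Adarb1 averaged 168 ± 57.1 CPM over the TG libraries and 36.1 ± 10.2 CPM over the DRG libraries (SD, n = 6 each). The log2 fold change of the 12-library edgeR fit, TG over DRG, was 2.22 with an SE of 0.27, a 4.67-fold difference. This and the other SEs were derived from the F statistic of the fit. The ratio of group means was 3.77 in females and 5.81 in males, and that of the females was 4.88 without female TG 3. Between libraries of the same number, the TG level was 6.62, 3.44 and 1.72 times the DRG level in the females and 3.72, 8.01 and 6.77 times in the males. In bulk fractions like these, fewer cells that express a gene and less of its RNA per cell cannot be told apart.

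Adar (ENSMUSG00000027951.10, chr3:89518944-89557368, plus strand) had 97.0, 92.8 and 67.8 CPM in female TG and 41.9, 70.0 and 62.8 CPM in male TG. In DRG it had 66.3, 74.8 and 54.7 CPM in the females and 48.0, 48.4 and 50.4 CPM in the males. The ganglia overlapped throughout, and the lowest of all 12 libraries was a TG library, male TG 1. The TG mean was 72.1 ± 20.3 CPM and the DRG mean 57.1 ± 11.01 CPM (SD, n = 6 each), and the log2 fold change, TG over DRG, was 0.32 with an SE of 0.19.

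Adarb2 (ENSMUSG00000052551.8, chr13:8202112-8767993, plus strand) was counted at 13, 22 and 45 reads in female TG and 14, 30 and 5 reads in male TG. In DRG it was at 0 in both libraries numbered 1 and both numbered 2, and had 26 reads in female DRG 3 and 11 in male DRG 3. Thus all 37 DRG reads came from the libraries numbered 3, and the ganglia overlapped. A count of 0 allows up to 3 reads, which is at most 0.399 CPM in the shallowest library, counting error only. Of 6631 genes at 0 in those same 4 DRG libraries, 22 had 10 or more reads in both DRG libraries numbered 3. The level averaged 1.72 ± 1.05 CPM over the TG libraries and 0.512 ± 0.898 CPM over the DRG libraries (SD, n = 6 each). The log2 fold change of 1.80 fitted in edgeR had an SE of 1.38, with most DRG libraries at 0, and DESeq2 also gave 1.80. The edgeR value was 4.86 without female DRG 3 and 4.20 without male DRG 3. In those fits a whole DRG group was at 0, so the size of both values depends on the prior count.

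**Figure D1:**
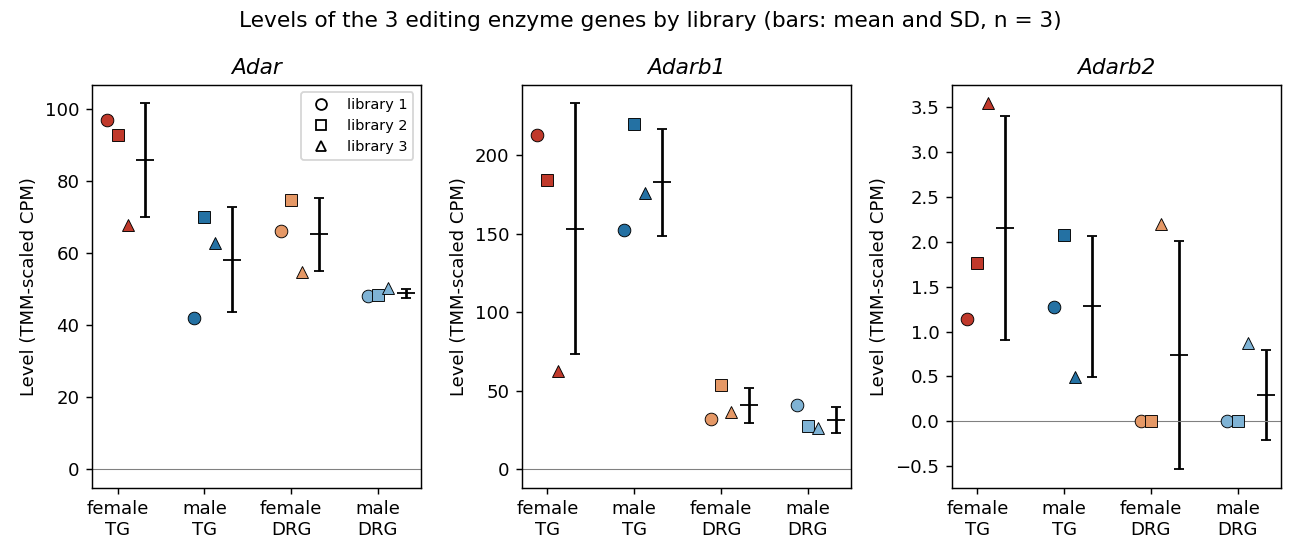
Level of each editing enzyme gene in TMM-scaled CPM (vertical axis, linear) in the 4 groups (horizontal axis). Each symbol is 1 library, shaped by its number, and the bars give the mean and SD of 3 libraries. Adarb1 lies at 62.6 CPM or more in every TG library and at 53.5 CPM or less in every DRG library, whereas the ganglia overlap for Adar and Adarb2.

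Ordered by group mean, Adarb1 ran from male TG (183 ± 34.0 CPM) through female TG (153 ± 79.7 CPM) and female DRG (40.7 ± 11.4 CPM) to male DRG (31.5 ± 8.25 CPM; SD, n = 3 each), and female TG and female DRG were the only neighbours whose libraries did not overlap. Adar ran from female TG (85.9 ± 15.8 CPM) through female DRG (65.3 ± 10.1 CPM) and male TG (58.2 ± 14.6 CPM) to male DRG (48.9 ± 1.24 CPM), with every pair of neighbours overlapping. Adarb2 ran from female TG (2.15 ± 1.25 CPM) through male TG (1.28 ± 0.790 CPM) and female DRG (0.734 ± 1.27 CPM) to male DRG (0.289 ± 0.501 CPM), again with every pair overlapping.

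Levels per kilobase of exon allow the members to be compared with each other. In DRG Adar was the more abundant, at 8.41 ± 1.62 CPM per kilobase against 3.20 ± 0.906 for Adarb1 and 0.0529 ± 0.0928 for Adarb2. In TG the order of the first pair was turned, with Adarb1 at 14.9 ± 5.07, Adar at 10.6 ± 3.00 and Adarb2 at 0.177 ± 0.109 CPM per kilobase (SD, n = 6). On this scale Adarb1 stood at percentile 73.9 of the tested genes in TG and 36.0 in DRG, and Adar at 66.0 and 60.2.

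As a share of the summed level of the 3 enzymes per kilobase, a ratio within each library that does not depend on scaling between libraries, Adarb1 made up 22.6, 30.1 and 28.0% in female DRG and 33.9, 25.4 and 23.5% in male DRG. In TG its share was 56.7, 54.1 and 34.9% in the females and 68.2, 64.9 and 62.7% in the males. The TG mean lay 29.7 percentage points above the DRG mean. Female TG 3 was again the exception: there Adar made up most of the sum, as in every DRG library, and its Adarb1 share was close to the 33.9% of male DRG 1. By raw counts, Adarb1 was 46.7% of the enzyme reads in female TG 3 (Wilson 95% interval 44.4 to 49.1%) and 46.0% in male DRG 1 (42.9 to 49.2%), so these 2 libraries could not be separated at their depth, and such intervals cover counting error only.

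**Figure D2:**
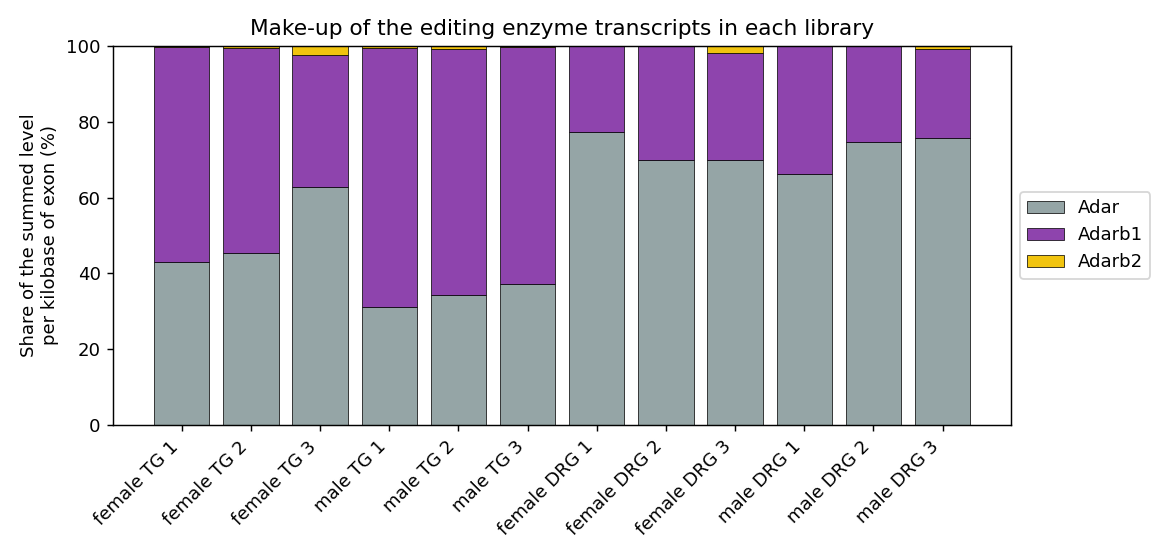
Share of Adar, Adarb1 and Adarb2 in the summed level of the 3 genes per kilobase of exon (vertical axis, %) in each of the 12 libraries (horizontal axis). The Adarb1 part of the bars is 54.1% or more in 5 of the 6 TG libraries, 34.9% in female TG 3 and at most 33.9% in DRG.

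Sex was not used to choose the genes and was tested within each ganglion with edgeR's quasi-likelihood test. No member passed an adjusted p of 0.05: 0 of 3 in TG, where 0.0357% of 14009 genes passed, and 0 of the 2 that could be tested in DRG, where 0.0358% of 13963 genes passed. DESeq2 called neither Adar nor Adarb1, while it called 6.36% of the 11836 genes with an adjusted p in TG and 5.01% of 6383 in DRG, and it gave Adarb2 no adjusted p in TG. Without adjustment, 1 of 3 members was below 0.05 in TG, against 20.7% of all genes, and 0 of 2 in DRG, against 11.8%.

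That member was Adar, for which females were above males in both ganglia. In TG the female over male log2 fold change was 0.61 (SE 0.27, 95% interval 0.02 to 1.21), and the adjusted p was 0.233 in edgeR and 0.176 in DESeq2. Over all alternatives it ran from 0.0104, with the libraries numbered 1 and 2 only, to 0.968, and it was 0.0569 without female TG 3. Female TG 3, at 67.8 CPM, lay below male TG 2, so the sexes overlapped. In DRG the log2 fold change was 0.42 (SE 0.28, interval -0.18 to 1.02), with an edgeR adjusted p of 0.587. Here the 3 females lay above the 3 males, as was the case for 7.85% of all genes tested. Reads outside genes split the DRG libraries in the same way, at 46.4 to 50.4% in the females and 38.2 to 42.6% in the males, and in TG they were 43.5 to 49.1% and 37.6 to 47.9%. With offsets for GC content and length, the log2 difference came to 0.04 in TG and 0.07 in DRG. The summed macrophage markers ran from 290 to 488 CPM in female TG and from 160 to 284 CPM in male TG, without overlap, and in DRG from 147 to 362 and from 161 to 224 CPM. The fibroblast markers ran from 1031 to 1677 CPM in female TG and from 618 to 1406 CPM in male TG. All 9 macrophage and all 6 fibroblast markers had positive female over male log2 fold changes in TG, with none past the adjusted threshold in edgeR. DESeq2 called 3 and 1 of them, against 6.36% of the genes with an adjusted p in TG. In DRG 8 of 9 macrophage, 6 of 6 fibroblast, 6 of 6 endothelial and 5 of 5 mural cell markers were positive. Their medians were 0.60, 0.70, 1.03 and 0.68, and none passed the threshold in edgeR. DESeq2 called 2 endothelial markers, against 5.01% of the genes with an adjusted p in DRG. The part of GC content, length, reads outside genes and these cells in the Adar values was not tested.

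Adarb1 did not follow one direction. Its female over male log2 fold change was -0.20 in TG (SE 0.38, interval -1.04 to 0.65, edgeR adjusted p = 0.803) and 0.38 in DRG (SE 0.33, interval -0.35 to 1.10, edgeR adjusted p = 0.712). Without female TG 3 the TG value became 0.12, and with GC-length offsets it was -0.69 (edgeR adjusted p = 0.556) in TG and 0.018 in DRG. The lowest adjusted p over all alternatives was 0.556 in TG and 0.495 in DRG. For Adarb2 in TG the value was 0.78 with an SE of 1.04 (edgeR adjusted p = 0.695) and an interval from -1.49 to 3.06 that spans large differences either way, and in DRG it did not pass the filter on low counts.

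Whether the sex effect differed between the ganglia was tested as an interaction over all 12 libraries. The difference in log2 fold change, TG minus DRG, was 0.14 for Adar (SE 0.37), -0.63 for Adarb1 (SE 0.51) and -0.56 for Adarb2 (SE 2.62), with an edgeR adjusted p of 0.9998 for each. The sign for Adar turned without male TG 1 (-0.045), and that for Adarb2 without female DRG 3 (5.54). With female DRG 3 left out, Adarb2 was at 0 in the remaining female DRG libraries, so the size of 5.54 depends on the prior count. None of the 14829 genes passed in edgeR or in DESeq2, and 292 (1.97%) had an unadjusted edgeR p below 0.05, none of them a member.

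**Figure D3:**
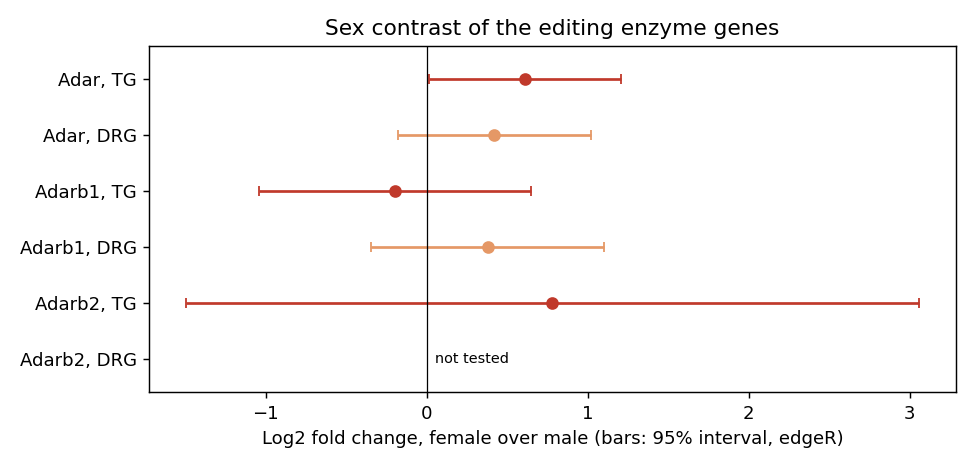
Female over male log2 fold change (horizontal axis) of each editing enzyme gene in TG and DRG (vertical axis). Bars are 95% intervals derived from the edgeR F statistic. Points to the right of the line are higher in females. The interval of Adar in TG runs from 0.02 to 1.21 and each other interval crosses 0; Adarb2 in DRG was not tested.

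Genes around the editing enzymes were examined in 7 lists covering 91 genes, of which 82 could be tested between the ganglia. One gene passed in TG over DRG and none in the other direction, or 1.22% of those tested against 0.964% of all genes, a share near the background. DESeq2 called 2 of the listed genes, against 2.25% of all genes, and 6 had an unadjusted edgeR p below 0.05, against 8.83% of all genes.

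That gene was Kcna1, which encodes a voltage-gated potassium channel subunit whose transcript is recoded in the pore by ADAR2. It had 1370, 1032 and 815 CPM in female TG, 818, 803 and 1239 CPM in male TG, 643, 518 and 531 CPM in female DRG, and 489, 492 and 528 CPM in male DRG. Every TG library lay above every DRG library, and female TG 3 was not the lowest here. The TG mean was 1013 ± 245 CPM and the DRG mean 534 ± 56.4 CPM (SD, n = 6 each). Its log2 fold change, 0.92 with an SE of 0.18, had an edgeR adjusted p of 0.0132. The call was lost when any of 3 libraries was left out: adjusted p was 0.0502 without female DRG 2, 0.0635 without female TG 1 and 0.0539 without male DRG 2. Over all alternatives the adjusted p of Kcna1 ran from 3.6e-05 to 0.0635.

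Of the 24 genes with known recoding sites, 23 could be tested and their median log2 fold change was 0.08, with 14 above 0, while the median of all genes was -0.01. Gria2, named after its values were seen, had the widest difference. Its edited codon, in capitals, is a CAG for glutamine at chr3:80510833-80510835 on the minus strand, shown here in the spliced coding sequence because editing there is the classic task of Adarb1.
Gria2: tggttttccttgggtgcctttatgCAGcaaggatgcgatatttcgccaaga
Gria2 had 56.4, 38.5 and 71.2 CPM in female TG and 76.9, 88.2 and 106 CPM in male TG, against 12.3, 36.2 and 47.1 CPM in female DRG and 35.8, 40.4 and 43.8 CPM in male DRG. The ganglia overlapped through female TG 2. The log2 fold change was 0.98 (SE 0.26), and the adjusted p was 0.0996 in edgeR and 0.0287 in DESeq2, within a range of 0.000726 to 0.231 over all alternatives. At the other end, Grik1, a kainate receptor subunit gene also named after its values were seen, stood at -0.67 on the log2 scale (SE 0.25) with an edgeR adjusted p of 0.372 (0.00475 to 0.722 over all alternatives). Htr2c, the serotonin receptor gene with several edited sites, had at most 23 reads and was not tested.

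**Figure D4:**
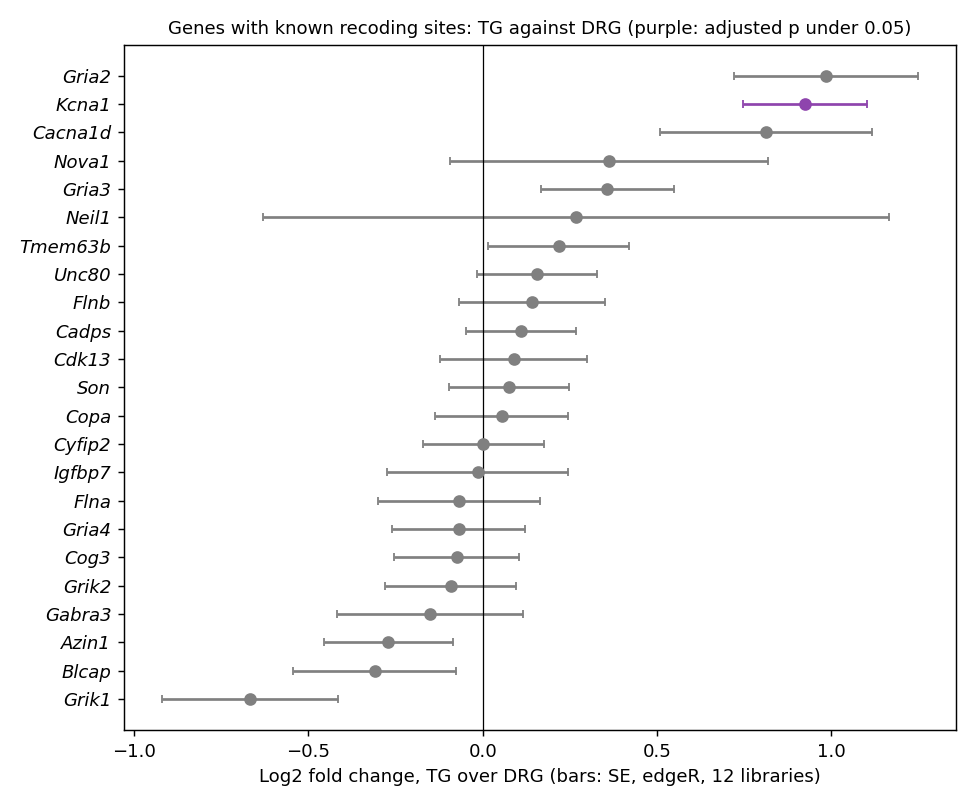
Log2 fold change, TG over DRG, with its SE (horizontal axis) for the 23 genes with known recoding sites that could be tested (vertical axis, ordered by value). Kcna1, in purple, was the 1 gene with an adjusted p under 0.05. Gria2 lies at 0.98 and Grik1 at -0.67, and the median is 0.08.

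No gene of the other 6 lists passed between the ganglia in edgeR or in DESeq2, and 2 had an unadjusted edgeR p below 0.05. Regulators and partners of the enzymes had a median log2 fold change of -0.04 over 14 genes, with Rps14, whose reads may be shared with pseudogene copies, at -0.34 (SE 0.29) and Fxr1 at -0.23 (SE 0.26). Adat1 and Adat2, which deaminate adenosine in transfer RNA, were at 0.04 (SE 0.38) and -0.12 (SE 0.73). Of the C-to-U editing genes 3 could be tested, among them Apobec1 at 1.04 (SE 0.50) and Apobec3 at 0.36 (SE 0.35).

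Sensors of double-stranded RNA, the pathway that ADAR1 keeps in check, had a median of -0.07 over 16 genes, with Oasl2 at 0.46 (SE 0.25) and Trim25 at -0.15 (SE 0.22). Interferon-stimulated genes had a median of 0.45 over 18 genes, 16 of them above 0, with Ifi27l2a at 0.26 (SE 0.35) and Bst2 at 0.61 (SE 0.28). Of the macrophage markers 8 of 9 were above 0, with a median of 0.37 and none past the threshold, and their part in these values was not tested. Proteins that bind or cleave inosine-containing RNA had a median of 0.06 over 6 genes, with Hdlbp at 0.06 (SE 0.23) and Sfpq at 0.09 (SE 0.20). Adad1, Adad2, Apobec4 and A1cf were at 0 in all 12 libraries. Between the sexes, 0 genes of the 7 lists passed in TG or in DRG in edgeR, whereas 8 of 80 in TG and 7 of 82 in DRG had an unadjusted p below 0.05, against 20.7% and 11.8% of all genes. DESeq2 called 1 in TG, where it called 6.36% of all genes. Without female TG 3, 10 listed genes passed in TG in edgeR, as did 3394 of all 14379 genes tested.

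The genes whose levels ran most like Adarb1 were chosen by Pearson's r of log2 CPM over the 12 libraries. They were Trappc10 (r = 0.959), Grin1 (0.958), Mybpc2 (0.950), Dner (0.946), Grm2 (0.942), Ltbp2 (0.939), Otud7b (0.939) and Ankrd33b (0.938). These 12 points share the ganglion difference, so the values describe likeness and carry no test. Within groups, the correlation of the deviations from the group means ranged from 0.568 for Otud7b to 0.874 for Grm2. These deviations were already part of the r by which the genes were chosen, so high values were favoured by the choice. Female TG 3 was the lowest TG library for Adarb1 and for each of these genes, and how far these correlations rest on it was not tested.

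Grin1, which encodes the obligatory NMDA receptor subunit, averaged 97.5 ± 24.6 CPM over the TG libraries and 48.3 ± 6.36 CPM over those of DRG (SD, n = 6). Dner, which encodes a Notch ligand of neurons, had 158 ± 45.5 and 78.4 ± 10.1 CPM. Female TG 3 was the lowest TG library for both, at 66.7 and 79.4 CPM, as it was for Adarb1. Mybpc2 and Grm2 were at 0 in all 6 DRG libraries and in female TG 3, and averaged 1.06 CPM in TG. Their highest counts were 28 and 27 reads, both in male TG 2, and they passed the filter on low counts only through TG libraries. Their r with Adarb1 thus rests on libraries with few reads against libraries with none. Among the 93 genes called higher in TG over the whole table, female TG 3 was the lowest of the TG libraries in 27 (29.0%) and female TG 2 in 24.

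Adar ran most like Gpc1 (r = 0.967), Numa1 (0.956) and Rab11fip4 (0.955), and Adarb2 most like Dqx1 (0.969), E330016A19Rik (0.938) and Prokr2 (0.914). Among themselves the members were less alike, with r = 0.510 for Adar and Adarb1, 0.500 for Adarb1 and Adarb2 and 0.233 for Adar and Adarb2.

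**Figure D5:**
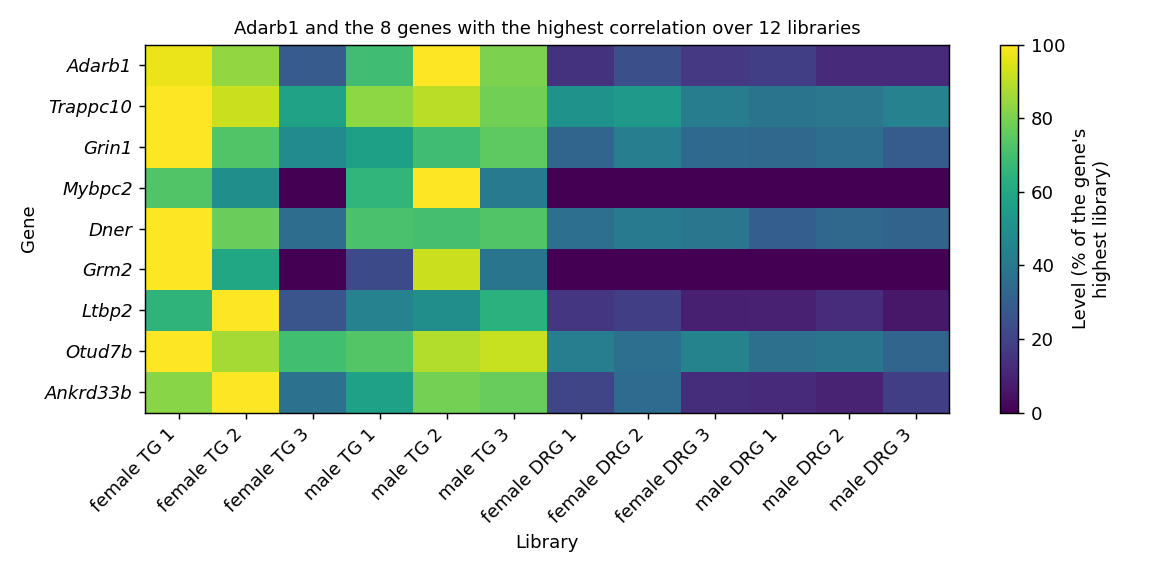
Level of Adarb1 and of the 8 genes with the highest correlation with it (vertical axis) in each library (horizontal axis), as a percent of that gene's highest library in TMM-scaled CPM (colour). The TG libraries other than female TG 3 are the brightest for Adarb1, and Mybpc2 and Grm2 are at 0 in every DRG library and in female TG 3.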

How the data were processed

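Per the labels and the methods of the study, total RNA was depleted of ribosomal RNA and made into stranded libraries, sequenced as single reads, aligned to mm9 with TopHat2 and counted per gene with HTSeq. The strand setting and annotation of the counting are not given in the sources used here. The deposited values are raw read counts per gene for 1 library each, with 5 summary lines per table kept out of library sizes. Of these lines, the one for reads outside genes held 37.6 to 50.4% of its sum with the reads in genes. Exons of Adar, Adarb1 and Adarb2 overlapped no exon of another gene on either strand.

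Counts were filtered with filterByExpr (minimum count 10), scaled by TMM and tested with edgeR 4.0.16 (quasi-likelihood F-test, Benjamini-Hochberg adjustment, threshold 0.05) in R 4.3.3. Sexes were compared within each ganglion (6 libraries), and the ganglia and the interaction over 12 libraries. DESeq2 1.42.0, other scalings, no filter, a replicate block, GC-length offsets and left-out libraries were alternatives. The members, gene lists and marker lists were chosen with earlier results of these data known. Besides the members, the named genes are those called in each list or, with none, its 2 genes of highest level per kilobase, and the genes most correlated with each member (8 for Adarb1, 3 for each of the others). Exon lengths and sequences came from NCBIM37 and GENCODE M1, in which 21712 of 22609 genes (96.0%) were matched. On simulated counts, 37.4% of genes changed 2-fold and 71.7% of those changed 4-fold were recovered between the ganglia, 21.6 and 69.7% between the sexes in TG, 8.51 and 61.1% in DRG, and 2 and 21.2% for the interaction.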

Additional observations from a re-analysis of the deposited data

How the results depend on the processing

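Changes of 2-fold were often missed on simulated counts, and Adarb2 was too sparse for a firm value. The direction of Adarb1 and of Adar between the ganglia held in every alternative, the log2 fold change of Adarb1 ranging from 2.01 to 2.41 and that of Adar from 0.15 to 0.42. Leaving out 1 library at a time gave 2.07 to 2.41 for Adarb1, 0.25 to 0.42 for Adar and 1.52 to 4.86 for Adarb2, and 27.4 to 34.1 percentage points for the Adarb1 share (29.8 from raw counts). For Adarb2 the value was 7.15 with the libraries numbered 1 and 2 only. There it was at 0 in every DRG library, so the size of 7.15 depends on the prior count. The cause of the other changes below was not tested.

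The labels do not say whether same-numbered libraries share animals, and the numbers were not used as pairs. Correlations of the deviations from the group means cannot tell whether animals were shared, and not every one was over 0.1. Between TG and DRG of the same number and sex all 6 were positive, at 0.028 to 0.216, and 8 of 12 libraries correlated best with their own number in the other ganglion. Between the sexes they ran from -0.098 to 0.168. With the replicate block, the Adarb2 log2 fold change between the ganglia was 4.01 (3.92 with GC-length offsets), the listed genes called went from 1 to 3 (4 with the offsets), the calls over all genes from 143 to 562 (508 with the offsets), and the Adarb2 interaction turned from -0.56 to 0.031 (0.15 with the offsets). The edgeR adjusted p with it was 3.6e-05 for Kcna1, 0.00296 for Gria2 and 0.00475 for Grik1. The block changed no sex call of a member.

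Listed genes called between the ganglia were 2 under DESeq2, no filter or GC-length offsets, 4 with the libraries numbered 1 and 2 only, and 0 to 2 when 1 library was left out. Over all genes, DESeq2 called 333 between the ganglia, no filter 218 and the libraries numbered 1 and 2 814. With GC-length offsets, 93 calls were higher in TG, as without them, and 83 rather than 50 in DRG (52.8 against 65.0% higher in TG).

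For sex, the libraries numbered 1 and 2 only gave Adar in TG a log2 fold change of 0.77 (edgeR adjusted p = 0.0104, the 1 of 15 alternatives past the threshold), Adarb1 0.10 and Adarb2 -0.19, with 32 listed genes called in TG and 6 in DRG, where 6251 and 1418 of all genes passed. DESeq2 called 1 listed gene in TG, and 753 and 320 of all genes in TG and DRG, and no filter 9 in TG. Leaving out 1 library gave -0.56 to 0.12 for Adarb1 in TG and 0 to 10 listed genes called in TG, 10 without female TG 3, where 3394 of 14379 genes passed. Offsets with the block gave Adarb1 -0.76 in TG. The interaction ran from -0.045 (without male TG 1) to 0.30 for Adar and from -5.35 to 5.54 for Adarb2 (without male DRG 3 and female DRG 3). In both of these Adarb2 fits a whole DRG group was at 0, so the sizes depend on the prior count. GC-length offsets gave an interaction of -0.023 for Adar (-0.015 with the block). Without TMM the median log2 difference over the tested genes moved from 0.05 to 0.16 for sex in TG and from 0.02 to 0.19 in DRG. The other 140 values with a library left out and 108 values under other alternatives kept their direction and side of the threshold, or stayed within the spread.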
